A study of Mus musculus with 6 samples.

Results

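The genes described here are 46 genes of the G1/S transition and of DNA replication, chosen by name from cell cycle biology out of the 55487 genes of the deposited count table. Earlier results of these data were known when they were chosen. All 46 were found and all 46 passed the filter on low counts, with the lowest count of a member in any library at 41 reads (E2f2). They were measured by poly(A) RNA sequencing in mouse embryonic fibroblasts (MEFs) of wild-type genotype, primary cells taken from embryos that can hold more than 1 cell type. The senescent MEFs were at passage 6 (P6) and the non-senescent MEFs at passage 1 (P1), a passage being a replating of the culture. At each of P6 and P1, 1 library came from MEFs given α-amyrin, 1 from β-amyrin and 1 from vehicle, with each amyrin at 20 µM for 3 days, which makes 6 libraries of 18798418 to 28752332 counted reads. The amyrins are isomeric plant triterpenes that differ in the place of a methyl group on ring E. The labels name neither the embryos nor the isolates, so passage and isolate cannot be told apart, and p-values measure only the spread among these 6 libraries.

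A cell that commits to division does so in G1, when cyclin D and cyclin E kinases phosphorylate RB and its relatives RBL1 and RBL2 and free the E2F factors from them. Free E2F factors switch on the genes that license origins, open the double helix, copy it and supply its building blocks. Licensing loads the MCM helicase on origins with the help of ORC, CDC6 and CDT1, and CDC45 and the GINS complex then turn it into the active CMG helicase. Senescent fibroblasts are cells that have left the division cycle for good, and a loss of E2F target transcripts is a textbook feature of that state.

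Promoters of some members show the DNA element through which E2F factors act. The part of this element in the changes below was not tested. The 46 genes were chosen by name from cell cycle biology, so the share with a match is not independent of that choice. The E2F element was searched as TTTCCCGC, TTTCGCGC, TTTGCCGC and TTTGGCGC on both strands, in windows from 250 bases before to 50 bases after the RefSeq start. Windows of 37 members were matched by symbol, and 17 of these 37 genes (45.9%) held at least 1 match, against 704 of all 27025 genes with a window (2.60%). The CCAAT box, searched as CCAAT on both strands, was in 22 of the 37 (59.5%), against 41.1% of all genes. The stretches below are the 160 bases before the start, from RefSeq in build GRCm38.p6, written 5′ to 3′ along the strand of the gene, with E2F matches in capitals. Mcm5 and Mcm6 code for helicase subunits, Cdc6 and Orc1 for licensing factors, and Cdca7 and Hells for a chromatin remodeller, while E2f1 is the factor itself and has no match in its stretch.
Mcm5 (chr8:75109349-75109508, plus strand): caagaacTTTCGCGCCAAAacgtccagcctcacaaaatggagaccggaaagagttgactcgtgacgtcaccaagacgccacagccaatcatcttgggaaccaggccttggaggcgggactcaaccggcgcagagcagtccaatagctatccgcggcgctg
Mcm6 (chr1:128359706-128359865, minus strand): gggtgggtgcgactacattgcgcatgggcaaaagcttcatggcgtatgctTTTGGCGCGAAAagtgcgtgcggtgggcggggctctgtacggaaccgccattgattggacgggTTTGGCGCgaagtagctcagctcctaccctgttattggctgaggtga
Cdc6 (chr11:98907991-98908150, plus strand): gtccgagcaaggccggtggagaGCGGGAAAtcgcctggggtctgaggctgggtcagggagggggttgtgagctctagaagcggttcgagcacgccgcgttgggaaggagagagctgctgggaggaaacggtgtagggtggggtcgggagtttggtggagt
Orc1 (chr4:108579294-108579453, plus strand): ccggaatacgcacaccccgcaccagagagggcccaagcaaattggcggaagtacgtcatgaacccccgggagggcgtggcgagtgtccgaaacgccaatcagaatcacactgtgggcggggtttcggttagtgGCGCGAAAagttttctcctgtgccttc
Cdca7 (chr2:72476059-72476218, plus strand): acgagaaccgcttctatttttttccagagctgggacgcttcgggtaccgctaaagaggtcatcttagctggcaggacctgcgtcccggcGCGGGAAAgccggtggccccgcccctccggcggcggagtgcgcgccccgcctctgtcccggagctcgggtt
Hells (chr19:38930830-38930989, plus strand): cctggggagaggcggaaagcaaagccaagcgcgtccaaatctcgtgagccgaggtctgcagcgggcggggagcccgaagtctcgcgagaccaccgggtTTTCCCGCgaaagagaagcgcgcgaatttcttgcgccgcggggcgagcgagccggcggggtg
E2f1 (chr2:154569427-154569586, minus strand): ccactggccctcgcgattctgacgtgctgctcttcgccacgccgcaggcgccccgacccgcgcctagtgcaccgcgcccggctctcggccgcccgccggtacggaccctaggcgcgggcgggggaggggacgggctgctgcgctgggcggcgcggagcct
In Mcm5 and in Mcm6, 2 matches on opposite strands overlap within 1 run of capitals, and Mcm6 has a further match closer to its start. A match describes these letters and is not a measured binding site. The lack of a match in the E2f1 stretch holds for the RefSeq start used here. Whether that start is the main start of E2f1 was not tested, so nothing is read from this lack. E2f2 and Gins3, whose transcripts were not lower at P6, each held a match in their window as well.

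Transcripts of this machinery were lower in senescent P6 MEFs across nearly every role. In the comparison of P6 against P1, 41 of the 46 genes fell, 3 rose (E2f1, E2f2 and Rfc2) and 2 did not pass the test (Gins3 and Gins4). The test was the edgeR quasi-likelihood test with treatment as an additive term, at a Benjamini-Hochberg adjusted p below 0.05 over 16962 genes. Over all genes tested, 29.1% fell and 30% rose, and the counts by role below stand against these shares. The 46 genes were chosen with earlier results of these data known, so contrasts with all genes are not blind to the data. The median log2 change of the 46 genes was -0.97, with a range of -2.21 to 1.26, while the median over all genes tested was 0.00. In 22 of the 46 genes the fall was at least 2-fold, against 6.59% of all genes tested. All 3 P6 libraries lay below all 3 P1 libraries for 42 genes (32.2% of all genes), all 3 lay above for 3 genes (32.5% of all genes), and Gins3 was the 1 gene whose passages overlapped.

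The summed level of the 46 genes, in CPM (counts scaled by TMM to a common library size), was 1208 with α-amyrin, 1133 with β-amyrin and 1018 with vehicle at P6. At P1 the sum was 2177 with α-amyrin, 2102 with β-amyrin and 2017 with vehicle. The sums of the passages did not overlap. In bulk RNA, fewer cells that express these genes and less of their RNA per cell cannot be told apart.

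**Figure D1:**
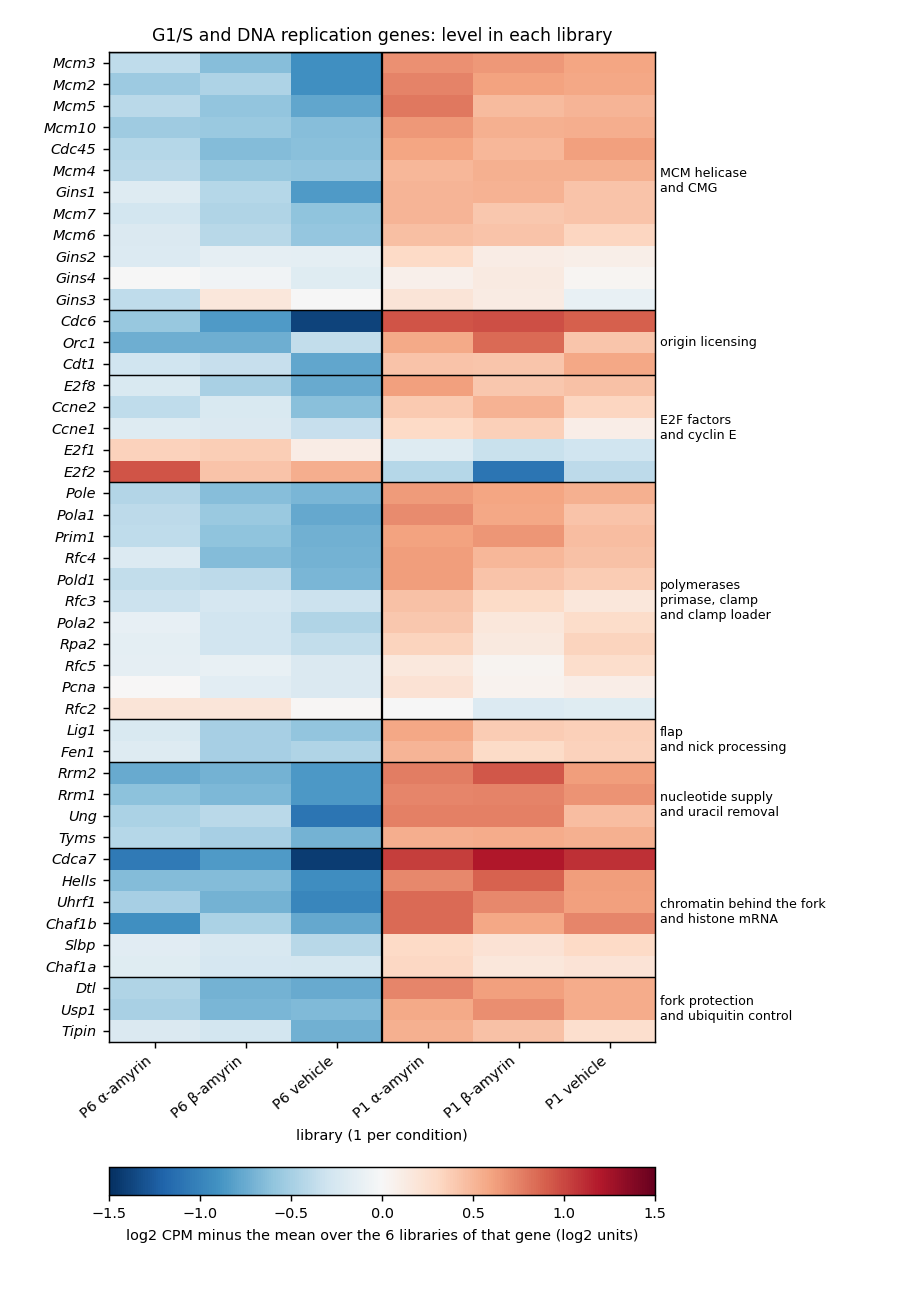
Level of each of the 46 genes (rows, by role) in each of the 6 libraries (columns), as log2 CPM minus the mean of that gene over the libraries. All P6 columns are below all P1 columns in 42 of the genes, and E2f1, E2f2 and Rfc2 run the other way.

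The P6 and P1 libraries held macrophage transcripts at very different levels. The summed CPM of 15 macrophage markers was 5443 with α-amyrin, 3789 with β-amyrin and 5341 with vehicle at P6, against 309 with α-amyrin, 43.8 with β-amyrin and 359 with vehicle at P1. None of the 15 was at 0 in any library and all 15 were called higher at P6. Of 10 fibroblast markers, 7 were called lower, 1 higher and 2 neither at P6, and their summed CPM was 50993 to 56735 at P6 and 36244 to 43598 at P1. The marker called higher was Fn1, picked out after its value was seen, and the other 9 summed to 22038 to 26630 CPM at P6 and 25450 to 30010 CPM at P1. The part of this shift in the levels of the replication genes was not tested.

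All 3 licensing factors fell, with a median log2 change of -1.22. Values per library are given in the order α-amyrin, β-amyrin and vehicle within each passage. Cdc6, the ATPase that brings the MCM helicase to ORC, had 6.21, 5.13 and 3.51 CPM at P6, against 17.8, 18.1 and 17.2 CPM at P1. All 3 P6 libraries were far below all 3 P1 libraries. The log2 change was -1.86 ± 0.15 (SE), or 27.6% of the P1 level (adjusted p = 6.7e-05, edgeR). Orc1, the ORC subunit that comes and goes with the cycle, had 3.40, 3.42 and 4.40 CPM at P6, against 8.43, 10.2 and 7.56 CPM at P1, a log2 change of -1.22 ± 0.17. Cdt1, the partner of CDC6 in helicase loading, had 10.6, 10.2 and 7.62 CPM at P6, against 17.5, 17.4 and 19.4 CPM at P1, a log2 change of -0.94 and the smallest fall of the 3. Other ORC subunits, named here after their values were seen, split: Orc6 (-1.07), Orc2 (-0.53) and Orc4 (-0.24) were called lower on the log2 scale, and Orc3 (0.08) and Orc5 (0.01) passed in neither direction. The Orc4 call was lost without the P6 β-amyrin library (adjusted p = 0.0803) or the P1 β-amyrin library (adjusted p = 0.0934, edgeR), and with limma on FPKM (adjusted p = 0.0517 to 0.114).

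The helicase group fell in 10 of its 12 members, with a median log2 change of -1.01. Mcm2, a subunit of the MCM ring, had 34.5, 36.3 and 26.5 CPM at P6, against 83.8, 76.3 and 74.8 CPM at P1, and Mcm3, another subunit of the ring, had 36.9, 30.8 and 25.3 CPM at P6, against 77.1, 75.5 and 72.5 CPM at P1. In both genes the lowest P1 library lay well above the highest P6 library. The log2 changes were -1.28 ± 0.08 for Mcm2 (SE, adjusted p = 3.2e-05, edgeR) and -1.29 ± 0.09 for Mcm3. The other ring subunits fell by 0.80 (Mcm6) to 1.19 (Mcm5) on the log2 scale. Mcm10 and Cdc45, which activate the loaded helicase, had log2 changes of -1.15 and -1.13.

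The GINS complex did not move as 1 unit. Gins1 fell, with a log2 change of -0.96 ± 0.15, and Gins2 fell by less, with -0.33 ± 0.07 (SE). Gins4 had a log2 change of -0.16 (95% interval -0.33 to 0.01, adjusted p = 0.102, edgeR) and did not pass the test. It was called lower with limma on log2(FPKM + 1), with a log2 change of -0.14 (adjusted p = 0.0430). Gins3, the helicase member with the smallest change, had 5.04, 7.40 and 6.56 CPM at P6, against 7.51, 7.16 and 6.10 CPM at P1. Its log2 change was -0.13 (95% interval -0.50 to 0.24), and the sign turned when either α-amyrin library was left out.

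Nucleotide supply fell in 4 of 4 genes, with a median log2 change of -1.37. Rrm2, the small subunit of ribonucleotide reductase that limits deoxynucleotide supply, had 54.5, 56.5 and 50.6 CPM at P6, against 158, 176 and 143 CPM at P1. The P6 libraries were far below the P1 libraries, and the log2 change was -1.55 ± 0.05 (adjusted p = 3.2e-06, edgeR), or 34.1% of the P1 level. Rrm1, the large subunit of the same enzyme, fell by 1.43 on the log2 scale. Tyms, which makes thymidylate, had 15.6, 14.8 and 12.8 CPM at P6, against 30.6, 30.8 and 30.4 CPM at P1, a log2 change of -1.09. Ung, which removes uracil from DNA, was low per length, with 0.413 to 0.670 FPKM at P6 and 1.20 to 1.64 FPKM at P1, and it had 3.56, 3.74 and 2.33 CPM at P6, against 8.36, 8.36 and 6.83 CPM at P1. Its log2 change was -1.30 ± 0.13.

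Genes for chromatin behind the fork fell in 6 of 6, with a median log2 change of -1.44. Cdca7, whose protein forms a remodelling complex with HELLS, had 4.51, 5.25 and 3.51 CPM at P6, against 19.4, 21.7 and 20.1 CPM at P1. It had the lowest log2 change of all 46 genes, -2.21 ± 0.12 (SE, adjusted p = 1.6e-05, edgeR), which left 21.6% of the P1 level. Hells fell by 1.49, Uhrf1 by 1.45 and Chaf1b by 1.42 on the log2 scale; UHRF1 brings the maintenance methyltransferase DNMT1 to new DNA and CHAF1B is a subunit of the histone loader CAF-1. Dnmt1 itself, a gene outside the 46 that was named after its value was seen, fell by 1.06. Cdca7l, the paralogue of Cdca7, also named after its value was seen, had a log2 change of -0.12 (adjusted p = 0.554, edgeR) and did not pass the test.

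Chaf1a and Slbp were at the other end of that group. Chaf1a, the large CAF-1 subunit, had 58.3, 55.2 and 55.1 CPM at P6, against 81.8, 73.9 and 76.2 CPM at P1, a log2 change of -0.46. Slbp, which binds the stem-loop of histone mRNAs, had 28.8, 27.3 and 24.2 CPM at P6, against 39.8, 37.6 and 39.8 CPM at P1, a log2 change of -0.55 ± 0.07. The passages were separate in both genes, though by less than in Cdca7.

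Polymerase, primase, clamp and clamp loader genes fell in 10 of 11, with a median log2 change of -0.60. Pole, the catalytic subunit of the leading-strand polymerase, fell most and had 17, 14.8 and 14.3 CPM at P6, against 35.7, 34.7 and 33.2 CPM at P1, a log2 change of -1.17 ± 0.07. Pola1 and Prim1, which start each new strand, had log2 changes of -1.15 and -1.14, and Pold1, of the lagging-strand polymerase, one of -0.96. The clamp Pcna, which holds polymerases on DNA and also serves in repair, had 93.2, 83.4 and 79.9 CPM at P6, against 108, 96.4 and 99.4 CPM at P1. Its passages did not overlap but lay close, and its log2 change of -0.24 ± 0.05 (adjusted p = 0.00417, edgeR) left 84.4% of the P1 level. Measured per length, Pcna and Rrm2 were the most abundant members: Pcna had 35.0 to 41.4 FPKM at P6 and 42.3 to 48.9 FPKM at P1, and Rrm2 had 18.9 to 21.1 FPKM at P6 and 54.0 to 66.7 FPKM at P1. At P1, Rrm2 was thus the higher of the pair in every library, and at P6 Pcna was. The single-strand binding subunit Rpa2 and the clamp loader subunits Rfc3, Rfc4 and Rfc5 fell by 0.31 (Rfc5) to 1.04 (Rfc4) on the log2 scale.

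Lagging-strand processing and fork control followed the same direction. Lig1, the ligase that seals Okazaki fragments, had 29.5, 24.4 and 22.9 CPM at P6, against 51.7, 45.2 and 44.2 CPM at P1, a log2 change of -0.88. Fen1, the nuclease that trims them, had 22.3, 18 and 18.6 CPM at P6, against 36.3, 31.1 and 32.4 CPM at P1, a log2 change of -0.76. Dtl, the substrate adaptor of a ubiquitin ligase that destroys CDT1 in S phase, had 13.2, 11 and 10.7 CPM at P6, against 29.8, 27.7 and 26.5 CPM at P1, a log2 change of -1.27. Usp1, which removes ubiquitin from PCNA, fell by 1.22, and Tipin, a fork protection factor, had 18.4, 17.7 and 13 CPM at P6, against 31, 29 and 25.4 CPM at P1, a log2 change of -0.81. In each of these genes all P6 libraries lay below all P1 libraries, as they did in 32.2% of all genes.

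**Figure D2:**
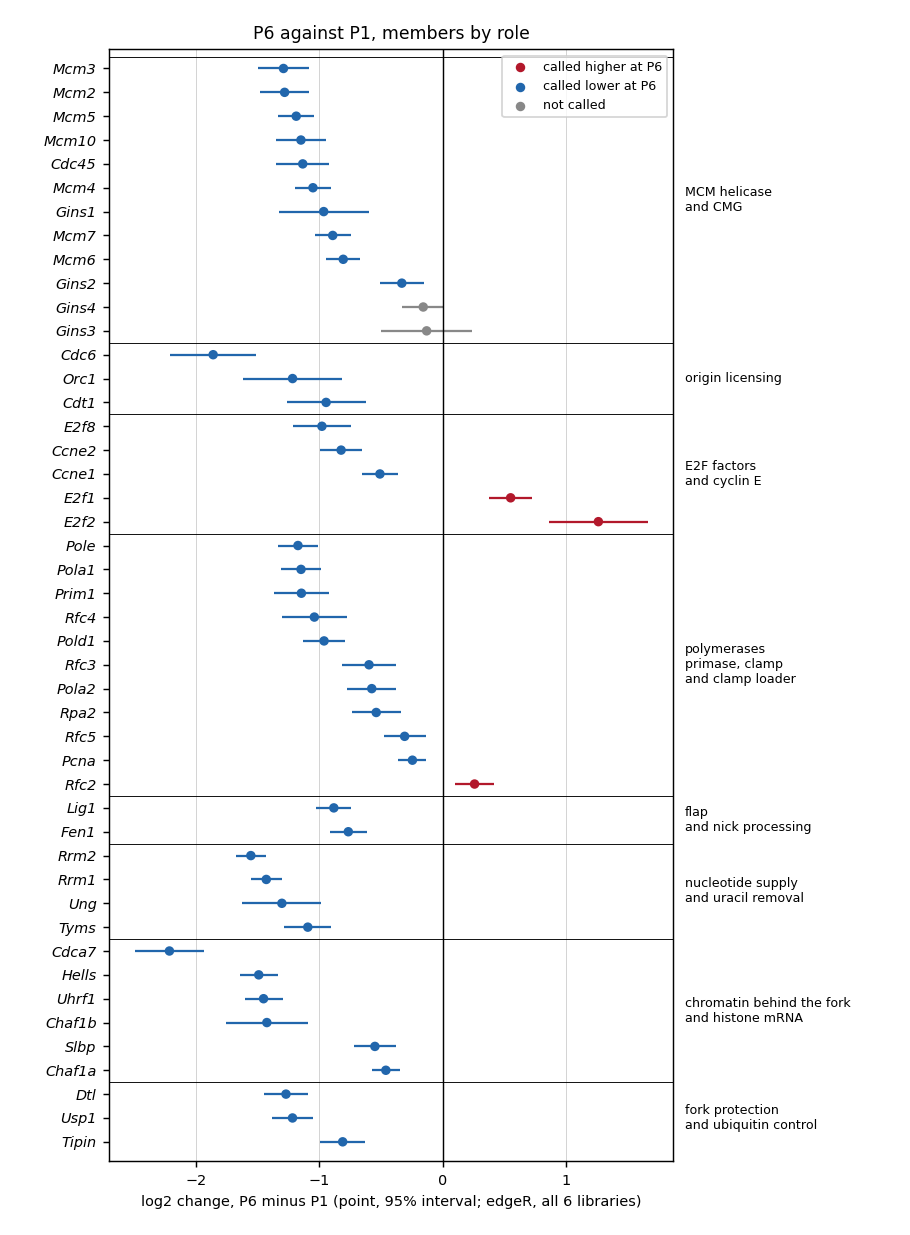
Log2 change of P6 minus P1 (x axis) for each of the 46 genes by role, with points for the edgeR estimate and lines for its 95% interval. Cdca7 at -2.21 and Cdc6 at -1.86 are lowest, E2f2 at 1.26 is highest, and the lines of Gins3 and Gins4 cross 0.

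The E2F and cyclin E genes were the group that split. E2f1, an activating E2F, rose and had 38.6, 39.3 and 32.8 CPM at P6, against 26.5, 24.1 and 24.7 CPM at P1. All 3 P6 libraries were above all 3 P1 libraries, and the log2 change was 0.55 ± 0.07 (adjusted p = 0.000673, edgeR). E2f2, another activating E2F, rose further and had 6.80, 4.74 and 5.12 CPM at P6, against 2.62, 1.65 and 2.68 CPM at P1, a log2 change of 1.26 ± 0.17, or 2.40-fold (adjusted p = 0.000667, edgeR). E2f8, a repressive E2F that is itself induced by E2F1, fell and had 11.5, 9.63 and 7.95 CPM at P6, against 20.7, 17.9 and 18.3 CPM at P1, a log2 change of -0.98 ± 0.10. The rise of E2f1 and E2f2 passed the test in each alternative that was run, FPKM values included. Macrophage markers rose in the same P6 libraries, with sums of 3789 to 5443 CPM at P6 and 43.8 to 359 CPM at P1. Their part in the rise of E2f1 and E2f2 was not tested.

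Both cyclin E genes, which code for the activators of CDK2 at the G1/S border, fell. Ccne1 had 26, 25.6 and 23.4 CPM at P6, against 36.7, 38.1 and 31.9 CPM at P1, a log2 change of -0.51 ± 0.06. Ccne2 had 19, 21 and 16 CPM at P6, against 32.4, 35.3 and 30.9 CPM at P1, a log2 change of -0.82 ± 0.07. In counts, both falls were smaller than the median of the 46 genes. With limma on log2(FPKM + 1), Ccne1 changed by -0.45 and Ccne2 by -0.96, against a median of -0.77 over the 46 genes. On that scale the fall of Ccne2 was thus larger than the median. Ccne2 overlaps Ints8 on the opposite strand over 5622 bases, and the part of Ints8 reads in the Ccne2 counts was not tested.

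The other genes of the pathway, 76 genes that are no members, fell in 58 cases (29.1% of all genes tested) and rose in 8 (30% of all genes tested). These 76 genes were likewise chosen with earlier results of these data known. The median log2 change of the 76 genes was -0.60. Their 3 lowest called log2 changes were those of E2f7 (-1.63 ± 0.08 SE), a repressive E2F like E2f8, Exo1 (-1.60 ± 0.12), a repair nuclease, and Pclaf (-1.54 ± 0.07), a PCNA-binding protein. The 3 highest were Ccnd1 (1.22 ± 0.04) and Ccnd2 (0.71 ± 0.07), the cyclins that start RB phosphorylation, and Rbl2 (0.74 ± 0.05), a relative of RB that holds E2F targets down in resting cells. Ccnd1 had 654, 567 and 477 CPM at P6, against 281, 238 and 211 CPM at P1. Rbl2 had 69.7, 61.2 and 66.4 CPM at P6, against 40.9, 36.3 and 40.5 CPM at P1. In both genes all P6 libraries lay above all P1 libraries, as they did in 32.5% of all genes.

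The regulators around the E2F switch thus went in both directions, and those named next were chosen after their values were seen. Rb1, which codes for RB, rose by 0.68 and Tfdp2, an E2F partner, by 0.46 on the log2 scale. Tfdp1, the other E2F partner, fell by 0.62, E2f4, a repressive E2F, by 0.49 and Rbl1 by 0.36. The kinases Cdk2 and Cdk4 fell by 0.88 and 0.61, and Ccna2, the S-phase cyclin, by 1.17. Mybl2, an E2F target that drives late cell cycle genes, fell by 1.41. Cdc7 and Dbf4, the kinase that fires licensed origins and its activator, fell by 1.39 and 1.30 on the log2 scale. Tk1, the thymidine salvage kinase, fell by 1.04. Cdk6 (0.05), Ccnd3 (-0.13) and E2f5 (-0.12) did not pass the test. Ccnd3 was called lower with upper-quartile factors, with limma on filtered FPKM, and without the P6 or the P1 vehicle library (adjusted p = 0.0384 to 0.0484).

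**Figure D3:**
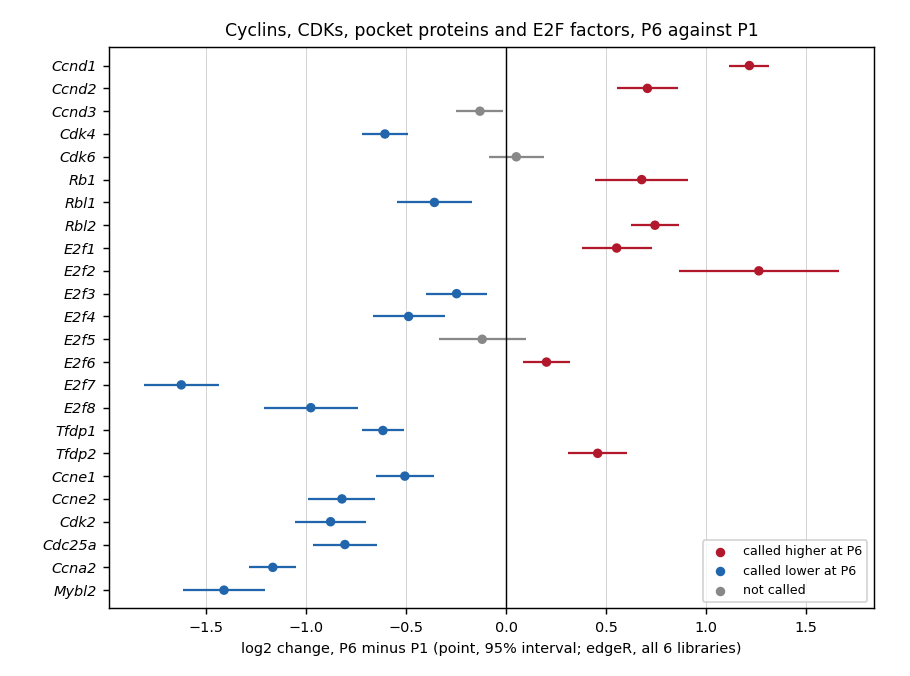
Log2 change of P6 minus P1 (x axis) with its 95% interval for cyclins, CDKs, RB family, E2F and E2F-linked genes. Among the genes plotted, E2f2 at 1.26 and Ccnd1 at 1.22 are highest, and E2f7 at -1.63, Mybl2 at -1.41 and Ccna2 at -1.17 are lowest.

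Rfc2, a clamp loader subunit, was the third gene called higher, and its direction depended on the deposited value used. It had 42.4, 42.3 and 37.4 CPM at P6, against 37.1, 32.2 and 32.8 CPM at P1, a log2 change of 0.26 ± 0.07 (adjusted p = 0.0122, edgeR). The P6 and P1 libraries were separate by a small margin. The call was lost without the P6 β-amyrin library (adjusted p = 0.0753) or the P1 β-amyrin library (adjusted p = 0.0613, edgeR). On the deposited FPKM values, tested with limma on log2(FPKM + 1), Rfc2 was lower at P6, with a log2 change of -0.24 (adjusted p = 0.0148). Rfc2 overlaps Lat2, a leukocyte adaptor gene on the opposite strand, over 1784 bases. Lat2 had 31.5, 34.9 and 24.4 CPM at P6, against 4.08, 1.49 and 5.60 CPM at P1, a log2 change of 3.04 ± 0.36. The sources used here do not say whether counting used strand, and the part of Lat2 reads in the Rfc2 counts was not tested.

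Further members overlap a neighbour on the opposite strand, and 3 of them had FPKM changes clearly below their count changes. The FPKM changes given here are those of limma on log2(FPKM + 1). On that scale the added 1 makes changes at low FPKM smaller than in FPKM itself. Gins2, which overlaps Gse1 over 2758 bases, had a log2 change of -0.33 in counts and -0.71 in FPKM. Rfc5, which overlaps Wsb2 over 499 bases, had -0.31 in counts and -0.67 in FPKM, and Chaf1a, which overlaps Ubxn6 over 5245 bases, had -0.46 in counts and -0.75 in FPKM, all on the log2 scale. The sign was the same on both scales in these 3 genes. Ccne2, which overlaps Ints8 over 5622 bases, had -0.82 in counts and -0.96 in FPKM, a smaller gap in the same direction. In other members with a neighbour on the opposite strand the gap ran the other way. Cdc45, which overlaps Ufd1, had -1.13 in counts and -0.85 in FPKM, and Rfc4, which overlaps Eif4a2, had -1.04 and -0.89. Orc1, which overlaps Gm12743, had -1.22 and -0.88, and E2f8, which overlaps Gm2788, had -0.98 and -0.71. All of these genes were picked out after their values were seen. The part of neighbour reads in these gaps was not tested.

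**Figure D4:**
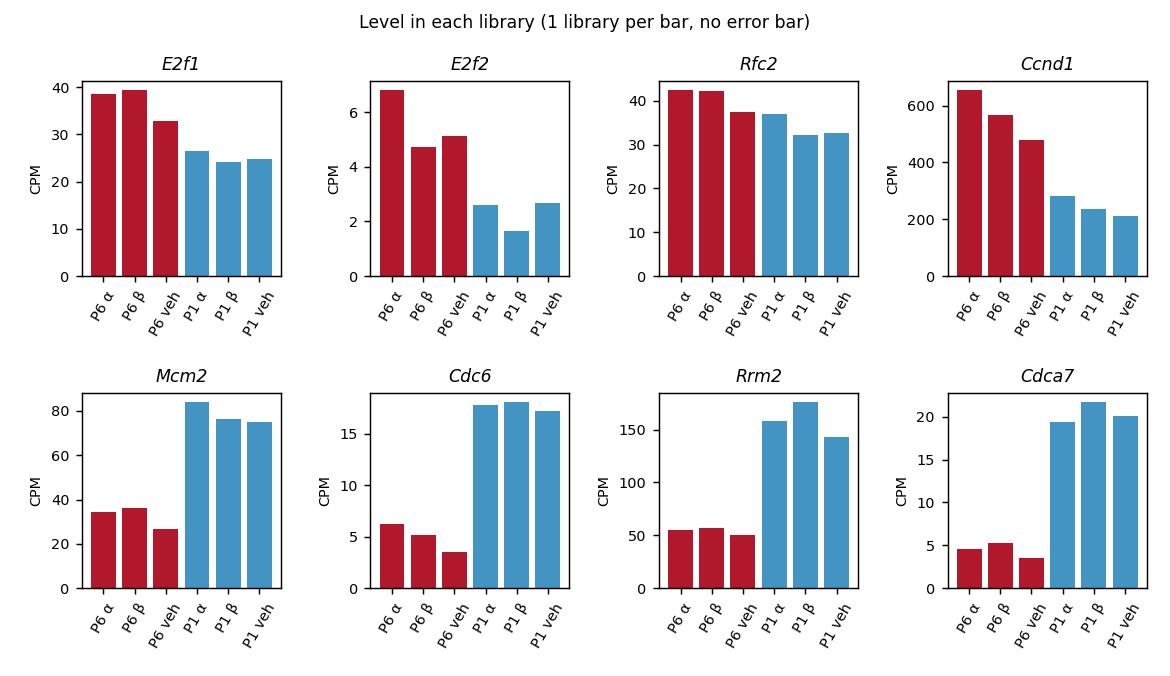
CPM in each library (1 bar per library, P6 bars left of P1 bars, y axes from 0) of E2f1, E2f2, Rfc2, Ccnd1, Mcm2, Cdc6, Rrm2 and Cdca7. E2f1 sits between 32.8 and 39.3 CPM at P6 and between 24.1 and 26.5 CPM at P1, while Cdca7 sits between 3.51 and 5.25 CPM at P6 and between 19.4 and 21.7 CPM at P1.

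Each treatment showed the passage difference: the median log2 ratio of the 46 genes was -0.84 for P6 over P1 with α-amyrin, -0.91 with β-amyrin and -1.13 with vehicle. Only 3 genes were above 0 with α-amyrin (50.5% of all genes), 4 with β-amyrin (50% of all genes) and 4 with vehicle (50.1% of all genes). These are ratios of single libraries, with no replicate and no test.

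At P6, most replication genes were somewhat higher with an amyrin than with vehicle. Over P6 vehicle, 41 of the 46 genes were above 0 with α-amyrin (53.4% of all genes) with a median log2 ratio of 0.27, and 41 with β-amyrin (51.7% of all genes) with a median of 0.16. The P6 vehicle library was the lowest of the 3 in 37 of 46 genes (38.1% of all genes), and the α-amyrin library the highest in 33 (34.4% of all genes). Cdc6 had the highest P6 ratio to vehicle with α-amyrin, 0.81 on the log2 scale, and Ung had the highest with β-amyrin, 0.67. Both ratios to vehicle share 1 vehicle library, so they are not separate observations of it.

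At P1 the shifts were smaller. Over P1 vehicle, 40 genes were above 0 with α-amyrin (49.3% of all genes) with a median log2 ratio of 0.12, and 28 with β-amyrin (50.2% of all genes) with a median of 0.05. Over β-amyrin, α-amyrin was higher in 33 genes at P6 (50.8% of all genes), with a median of 0.08, and in 31 genes at P1 (50.7% of all genes), with a median of 0.10.

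**Figure D5:**
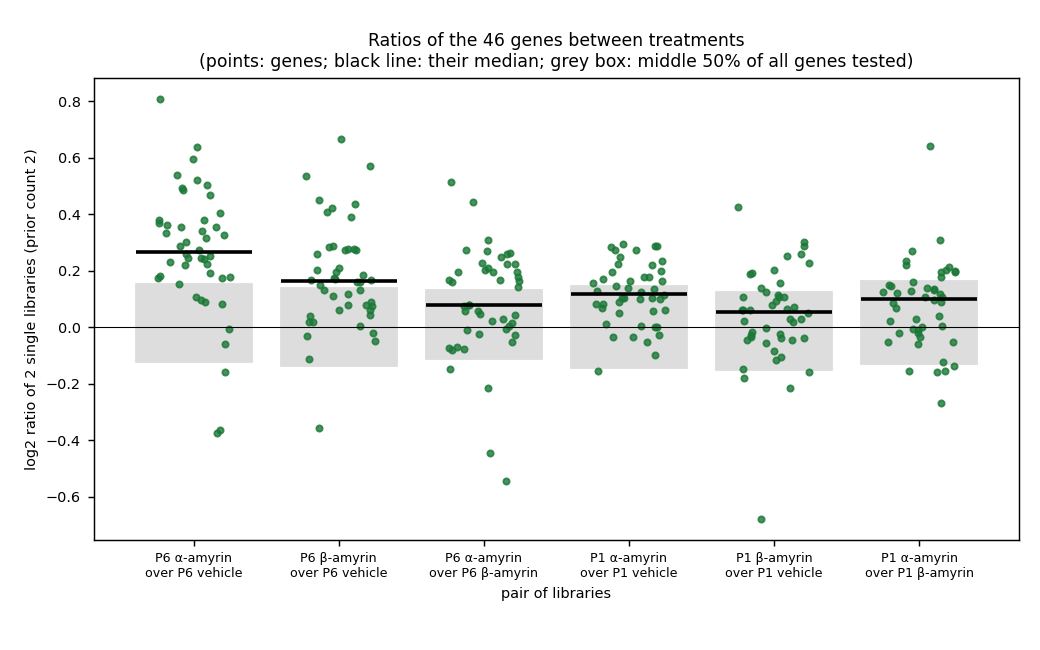
Log2 ratios between single libraries of 1 passage (y axis) for the 46 genes (points) in 6 pairs of libraries, with their median (black line) and the middle 50% of all genes tested (grey box). The medians are 0.27 and 0.16 for α- and β-amyrin over vehicle at P6, and 0.12 and 0.05 at P1.

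With the passages as the 2 samples of each treatment, no replication gene passed the test for a compound. For α-amyrin against vehicle, 0 of 46 genes were called by edgeR (0.0295% of all genes), and DESeq2 and limma also called 0. The log2 change was above 0 in 44 of 46 genes (52.0% of all genes) with a median of 0.17, and 18 genes, all higher, had an unadjusted p below 0.05 (11.8% of all genes in either direction). Uhrf1 had the smallest adjusted p, with a log2 change of 0.35 (95% interval 0.16 to 0.53, adjusted p = 0.211, edgeR), and was higher with α-amyrin at both passages. Uhrf1 and Mcm5 were called higher when either β-amyrin library was left out or when no count filter was used (adjusted p = 0.0194 to 0.0425, edgeR).

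For β-amyrin against vehicle, 0 of 46 genes were called by edgeR (0.0059% of all genes), and again 0 by DESeq2 and limma. The log2 change was above 0 in 40 genes (50.7% of all genes) with a median of 0.10, and 6 genes, all higher, had an unadjusted p below 0.05 (10.3% of all genes). Rrm2 had the smallest adjusted p, with a log2 change of 0.23 (95% interval 0.09 to 0.38, adjusted p = 0.332, edgeR). The median was 0.03 without the P6 vehicle library and 0.06 without the P6 β-amyrin library. Macrophage markers had a median log2 change of -1.40 with β-amyrin, with 0 of 15 above 0, 9 of 15 at an unadjusted p below 0.05 and 0 called, and their part in the values of the 46 genes was not tested. These 95% intervals do not take account of the number of genes tested.

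For the genes named in every comparison, none passed the test with either amyrin. The log2 change with α-amyrin was 0.26 for Mcm2, 0.18 for Ccne1, 0.15 for Ccne2, 0.17 for E2f1, 0.17 for Pcna, 0.13 for Rrm2, 0.12 for Slbp and 0.41 for Ung. With β-amyrin the log2 change was 0.22 for Mcm2, 0.20 for Ccne1, 0.29 for Ccne2, 0.12 for E2f1, 0.01 for Pcna, 0.04 for Slbp and 0.44 for Ung. With 1 library left out, the α-amyrin values ranged from 0.0076 to 0.24 for Slbp, 0.071 to 0.24 for Ccne2, 0.067 to 0.27 for E2f1, 0.12 to 0.43 for Mcm2, 0.071 to 0.18 for Rrm2 and 0.29 to 0.63 for Ung. Ung, the largest of them, rests on 55 to 246 reads per library.

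The isomers were not separated by these genes either. For α-amyrin minus β-amyrin, 0 of 46 genes were called by edgeR (0.059% of all genes), DESeq2 or limma, and 5 genes, all higher with α-amyrin, had an unadjusted p below 0.05 (9.21% of all genes). The log2 difference was above 0 in 36 genes (50.9% of all genes), with a median of 0.08, and of 0.14 without either the P6 β-amyrin or the P1 α-amyrin library. The 5 were Mcm5 (0.26), Fen1 (0.26), Lig1 (0.23), Pcna (0.16) and E2f2 (0.57) on the log2 scale, with adjusted p from 0.400 to 0.491 (edgeR). E2f2 had the widest of these intervals, 0.08 to 1.05, and macrophage markers were also higher with α-amyrin, with a median log2 difference of 1.31 over the 15 markers and 0 of 15 called. For the other genes named in every comparison the difference was -0.14 (Ccne2) to 0.08 (Slbp) on the log2 scale. The 95% interval of the difference lay within 0.5 of 0 in 38 of the 46 genes, so larger differences between the isomers are outside the intervals of those genes, taken 1 at a time.

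The response to an amyrin was not shown to differ between passages. In the passage-by-amyrin term, which pools the α- and β-amyrin libraries within each passage, 0 of 46 genes were called by edgeR (0% of all genes), DESeq2 or limma, and 2 had an unadjusted p below 0.05 (2.66% of all genes). These were the licensing genes Cdc6, with a log2 term of 0.62 (95% interval 0.04 to 1.20), and Cdt1, with 0.61 (95% interval 0.18 to 1.03). The median term over the 46 genes was 0.15 and 40 were above 0 (52.8% of all genes), with a median half-width of the 95% interval of 0.42. The median was 0.08 without the P6 α-amyrin library and 0.09 without the P1 β-amyrin library. For the other named genes the term ran from -0.09 (Rrm2) to 0.36 (Ung).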

How the data were processed

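Poly(A) RNA was sequenced from 6 libraries, 1 per condition, made with a directional kit per the labels' protocols. The submitters' processing notes name FastQC 0.11.7, Trimmomatic 0.38, HISAT2 2.1.0, SAMtools 1.9, featureCounts 1.6.3 and build mm10. For strand use in counting and other settings, the sources used here give nothing. The deposited counts are whole numbers of reads for 55487 genes, not normalized, and were used in each test unless stated. FPKM values, scaled per length and library size, were deposited as well, by a computation the sources used here do not give; they served for levels per length and for alternatives on a log2 scale.

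Total counts per library ran from 18798418 (P6 α-amyrin) to 28752332 (P1 α-amyrin). TMM scaling was applied, with factors from 0.989 to 1.02, and filtered with filterByExpr (passage as group), which kept 16962 genes. The quasi-likelihood test of edgeR 4.0.16 in R 4.3.3 fitted passage and treatment as additive terms to all 6 libraries. P-values were adjusted by Benjamini-Hochberg over all genes tested, with a threshold of 0.05. The fit has 2 residual degrees of freedom, which are the departures from additivity, and 4.83 prior degrees of freedom; the common biological coefficient of variation was 7.72%. Errors are standard errors and intervals are 95% intervals from that fit. Ratios between single libraries used a prior count of 2 and have no test. Alternatives used other size factors, DESeq2 1.42.0, limma 3.58.1 on log2(FPKM + 1) and log2(FPKM + 0.1), no filters, a fit of passage alone, and each library left out in turn. The scripts were tested on simulated data.

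The members and the lists of other pathway genes and cell type markers were chosen with earlier results of these data known. Values in every library are given for the lowest and highest member of each role by the change of P6 against P1, and for Ccne1, Ccne2, E2f1, Pcna, Mcm2, Rrm2, Slbp and Ung in every comparison. Of the other pathway genes, the 3 lowest and 3 highest called changes with a mean of at least 5 CPM are named. Other genes named were chosen after their values were seen. Overlaps between genes come from the GENCODE vM21 annotation of the same build.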

Additional observations from a re-analysis of the deposited data

Results flagged for a closer look

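In 4 of the 46 genes both amyrin libraries lay on one side of vehicle at P6 and on the other side at P1. The share of all genes with this pattern was not computed, so the count is not read as a result. The passage-by-amyrin term, a log2 difference of the response at P6 minus that at P1, is given for each of them. It uses the same values that picked these genes, so it is not a separate check. Cdt1, the licensing factor, was higher with both amyrins at P6 and lower at P1, with a term of 0.61 (95% interval 0.18 to 1.03). Rfc5, of the clamp loader, and Mcm4, of the helicase ring, had the same pattern with terms of 0.26 (95% interval -0.05 to 0.56) and 0.12 (95% interval -0.21 to 0.45). Orc1 was lower with both amyrins at P6 and higher at P1, with a term of -0.66 (95% interval -1.36 to 0.04). None of the 4 passed the test over all genes (adjusted p = 1.00 each, edgeR).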

How the results depend on the processing

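For P6 against P1, the members called lower numbered 41 to 43 and those called higher 2 to 3 over all alternatives. Their median log2 change was -0.77 with limma on log2(FPKM + 1), with and without the filter, and -1.08 to -0.90 with 1 library left out. Other pathway genes called higher numbered 5 to 8 with 1 library left out. Rfc2 reversed with limma on FPKM, to -0.24 with a pseudocount of 1, with or without the filter, and to -0.29 with a pseudocount of 0.1. Orc5 took values of -0.0018, -0.0018 and -0.0025 in the same 3 fits and -0.0019 with upper-quartile factors. With 1 library left out, Orc5 ranged from -0.019 to 0.018, Orc3 from -0.0069 to 0.12, Cdca7l from -0.32 to 0.064 and Gins3 from -0.26 to 0.079. The medians of single-library ratios on FPKM + 1 were -0.75 for P6 over P1 with β-amyrin and -0.84 with vehicle. The cause was not tested.

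For the compounds, α-amyrin against vehicle called 5 genes in all by edgeR, 206 by DESeq2, 464 without a count filter, 0 by limma and 0 to 367 with 1 library left out. The median log2 change of the 46 genes with 1 library left out was 0.14 to 0.25 with α-amyrin, 0.029 to 0.14 with β-amyrin, 0.061 to 0.14 for α-amyrin minus β-amyrin and 0.082 to 0.19 for the passage-by-amyrin term. The members called with α-amyrin numbered 0, 2 without a count filter and 0 to 2 with 1 library left out. β-amyrin against vehicle called 1 gene, 3 with RLE or upper-quartile factors, 115 by DESeq2, 404 without a count filter, 0 by limma and 0 to 317 with 1 library left out. α-amyrin minus β-amyrin called 10 genes, 122 by DESeq2, 484 without a count filter, 0 by limma and 0 to 439 with 1 library left out. The passage-by-amyrin term called 0 genes (451 at an unadjusted p below 0.05), 21 by DESeq2, 159 without a count filter, 266 by limma without a filter and 0 to 16 with 1 library left out. With β-amyrin, Pcna took -0.00036 with upper-quartile factors, and with 1 library left out Pcna ranged from -0.042 to 0.051, Slbp from -0.079 to 0.16 and E2f1 from -0.012 to 0.23. For α-amyrin minus β-amyrin, Ccne1 took 0.012, 0.013 and 0.012 in the 3 limma fits, and with 1 library left out Ccne1 ranged from -0.060 to 0.038, E2f1 from -0.057 to 0.18, Mcm2 from -0.13 to 0.19 and Ung from -0.17 to 0.059. The passage-by-amyrin term of Ung was -0.015 with limma on log2(FPKM + 1), with or without the filter.

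With 1 library per condition, differences between single libraries have no replicate check, and a response that differs between passages counts as error. Leaving out a library leaves 1 residual degree of freedom, and the library left alone in its treatment is assumed to vary like the others. The additive fit matches that library exactly, so it adds almost nothing to P6 against P1 or to contrasts of the other treatments. For these, leaving out either library of a treatment is nearly the same check and not a separate one. Rfc2 took 0.177 without the P6 and 0.182 without the P1 β-amyrin library. No fit with a replicate number was made, since each condition has 1 library; the additive fit already compares treatments within a passage and passages within a treatment.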
